A study of Mus musculus with 92 samples.

Results

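The 10 genes described here encode enzymes that carry glucose through glycolysis and into and out of glycogen in skeletal muscle. They are Hk2, Pfkm, Aldoa, Tpi1, Pgam2, Eno3, Ldha, Pygm, Pgm1 and Gys1, taken by symbol from the 13441 genes of 1 table of quadriceps RNA sequencing. All 10 symbols were found, on 11 lines, because Aldoa is listed under 2 identifiers. The table covers 92 mice in 1 group. They were DOz mice, an outbred stock, about 18 to 20 weeks of age and kept on standard chow for life, and the quadriceps is the large muscle at the front of the thigh. The labels give no second treatment, no sex and no further detail of the animals, so the data show levels, spread between animals and covariation, and no contrast between conditions. The subject of the series, by its title, is the link between muscle ceramides with very long chains and insulin resistance. Lipid and insulin measures were not analysed here.

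Skeletal muscle takes up glucose through the transporter encoded by Slc2a4, and hexokinase 2, the product of Hk2, traps it as glucose 6-phosphate. From there the sugar either enters glycolysis or is turned by phosphoglucomutase (Pgm1) towards glycogen, which glycogen synthase (Gys1) builds and muscle glycogen phosphorylase (Pygm) breaks down. In glycolysis phosphofructokinase (Pfkm) commits the sugar to breakdown, aldolase (Aldoa) splits it, and triosephosphate isomerase (Tpi1) interconverts the pieces. Phosphoglycerate mutase (Pgam2) and enolase (Eno3) act near the end of the chain, and lactate dehydrogenase A (Ldha) turns pyruvate into lactate. Fast glycolytic fibres are known for a high content of glycolytic enzymes and phosphorylase, and oxidative fibres for more hexokinase. Lack of PYGM or PFKM in people causes muscle glycogen storage diseases.

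The deposited values are log2 per-million values, so 1 unit is a doubling. They were not divided by gene length, and levels of different genes are therefore compared only per kilobase. The number of reads behind a library is unknown, so precision is given by the spread between animals. A list of 8 muscle fibre genes (Acta1, Ckm, Ttn, Myh4, Myh1, Mb, Tnnt3 and Atp2a1) took 13.6% to 21.4% of the summed linear values of a library, while 8 fibroblast genes took 0.0470% to 0.268% and 8 adipocyte genes 0.00140% to 0.0835%. The library of animal 260, the number in its title, stood apart. Its mean correlation with the other libraries over all genes was 0.932, the lowest of the 92, against a median of 0.961, and the library of animal 55 was next at 0.937. Animal 260 was the lowest of all 92 for 6 of the 10 enzymes, Pfkm, Aldoa, Tpi1, Eno3, Pygm and Pgm1, and its Pygm was at -4.58 SD from the mean. In the same animal the fast myosin gene Myh4 was at -3.96 SD and the collagen gene Col1a1 at 3.05 SD. Calls named below that change without this animal are given both ways.

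The promoters shown are those of the pair of enzymes that varied most closely together, Eno3 and Tpi1, and of the opposed glycogen enzymes Gys1 and Pygm, which did not. Each is the 300-base RefSeq window around an annotated start, most of it upstream, build GRCm38.p6, written 5′ to 3′ on the strand of the gene, with E-boxes (CANNTG, the sequence that basic helix-loop-helix factors such as MyoD bind) in capitals. Eno3 lies at chr11:70656926-70657225 on the plus strand, Tpi1 at chr6:124814109-124814408 on the minus strand, Gys1 at chr7:45434589-45434888 on the plus strand and Pygm at chr19:6384158-6384457 on the plus strand.
Eno3: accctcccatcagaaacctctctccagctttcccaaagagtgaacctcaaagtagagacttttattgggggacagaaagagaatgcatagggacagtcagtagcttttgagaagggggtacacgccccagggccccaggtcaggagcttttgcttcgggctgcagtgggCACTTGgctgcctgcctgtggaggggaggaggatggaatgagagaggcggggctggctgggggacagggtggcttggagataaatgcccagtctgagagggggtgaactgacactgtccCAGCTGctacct
Tpi1: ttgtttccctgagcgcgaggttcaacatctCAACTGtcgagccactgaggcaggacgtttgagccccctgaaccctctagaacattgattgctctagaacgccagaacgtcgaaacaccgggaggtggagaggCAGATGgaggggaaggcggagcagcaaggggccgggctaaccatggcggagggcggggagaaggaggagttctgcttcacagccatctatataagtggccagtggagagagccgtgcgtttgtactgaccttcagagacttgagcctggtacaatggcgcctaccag
Gys1: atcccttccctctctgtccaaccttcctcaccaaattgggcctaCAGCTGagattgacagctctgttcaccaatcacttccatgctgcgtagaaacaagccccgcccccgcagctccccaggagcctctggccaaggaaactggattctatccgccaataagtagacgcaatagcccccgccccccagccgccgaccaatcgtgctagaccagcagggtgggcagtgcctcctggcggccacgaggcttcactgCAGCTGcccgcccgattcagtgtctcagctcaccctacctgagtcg
Pygm: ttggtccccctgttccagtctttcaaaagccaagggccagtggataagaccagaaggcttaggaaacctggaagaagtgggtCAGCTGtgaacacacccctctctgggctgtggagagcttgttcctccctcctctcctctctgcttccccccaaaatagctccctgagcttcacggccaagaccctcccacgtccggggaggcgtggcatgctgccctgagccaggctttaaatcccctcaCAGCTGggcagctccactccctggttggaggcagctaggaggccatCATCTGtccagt
The Eno3, Tpi1 and Gys1 windows hold 2 E-boxes each and the Pygm window holds 3. All 10 enzymes had at least 1 window in the RefSeq table, 16 in all, and windows of 1 gene can overlap and share sequence. An E-box was present in 13 of the 16, for 8 of 10 genes, with none in the windows of Hk2 and Pgm1, against 64.1% of the 13014 windows of genes in the table. The E-box form CAGCTG, which is counted under CANNTG too, was present in 5 of 16 windows against 15.6% of all. ACGTG, the core of the hypoxia response element and part of the E-box CACGTG, was in 8 of 16 against 25%. The GC box GGGCGG was in 7 of 16 against 60.8%, CCAAT in 7 of 16 against 37%, TATAAA in 1 of 16 (Pgm1) against 7.64%, and the MEF2 motif in 1 of 16 (Pgam2) against 1.99%. Both strands were searched, and a match describes the letters in the window only.

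The entry of glucose into the pathway was the step with the widest spread. Hk2 (ENSMUSG00000000628, chr6:82725025-82774454, minus strand, GRCm38) had a mean log2 level of 8.34 ± 0.33 (SD, n = 92), with a lowest animal at 7.62, a median of 8.35 and a highest animal at 9.21. The highest animal thus had 3.01 times the linear value of the lowest. The SD of Hk2 relative to the trend of SD on mean over all genes exceeded that of 86.8% of genes.

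Of the glycolytic enzymes after it, Pfkm, Aldoa and Tpi1 varied little. Pfkm (ENSMUSG00000033065, chr15:98092589-98132451, plus) had a mean log2 level of 11.78 ± 0.15, from 11.18 through a median of 11.79 to 12.11. The lowest of these was animal 260, and without it the lowest was 11.53. Aldoa (ENSMUSG00000030695, chr7:126795234-126800751, minus) stood at 13.67 ± 0.16, from 13.01 through 13.68 to 14.14, and took a median of 1.30% of the summed linear values. The second Aldoa identifier, ENSMUSG00000114515, ends 38 bases upstream of the first and stood at 4.65 ± 0.45, and it correlated with the main line at r = 0.459. All other Aldoa values are those of the main identifier. Tpi1 (ENSMUSG00000023456, chr6:124810586-124814296, minus) had the narrowest range, at 10.68 ± 0.14, from 10.35 through 10.68 to 11.01, which is 1.58-fold in linear terms. Without animal 260 the range of Pfkm was narrower still, at 1.498-fold against 1.562-fold for Tpi1.

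The late glycolytic enzymes were spread as follows. Pgam2 (ENSMUSG00000020475, chr11:5801640-5803733, minus) had a mean log2 level of 10.07 ± 0.22, from 9.47 through 10.06 to 10.75. Eno3 (ENSMUSG00000060600, chr11:70657202-70662513, plus) stood at 12.07 ± 0.16, from 11.65 through 12.08 to 12.48. Ldha (ENSMUSG00000063229, chr7:46841475-46855627, plus) stood at 11.07 ± 0.15, from 10.61 through 11.08 to 11.51. Of these, Pgam2 had the widest spread, 2.43-fold from lowest to highest, against 1.78-fold for Eno3 and 1.87-fold for Ldha.

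Of the glycogen enzymes, Pygm (ENSMUSG00000032648, chr19:6384399-6398459, plus) had a mean log2 level of 12.78 ± 0.18, from 11.97 through 12.77 to 13.27. Pgm1 (ENSMUSG00000025791, chr4:99929414-99987294, plus) stood at 10.29 ± 0.19, from 9.51 through 10.30 to 10.75. Gys1 (ENSMUSG00000003865, chr7:45434844-45456619, plus) stood at 8.74 ± 0.21, from 8.04 through 8.72 to 9.10. Animal 260 was far below the others for both Pygm and Pgm1, and without it the lowest animals were at 12.45 and 9.95. Animal 55 had the lowest Gys1. These 10 genes had a median SD of 0.17. It was 0.21 for the 357 genes with a mean log2 level over 8 and 0.32 for all genes, and 8 of the 10 lay under the trend of SD on mean, with Hk2 and Pgam2 above it.

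**Figure D1:**
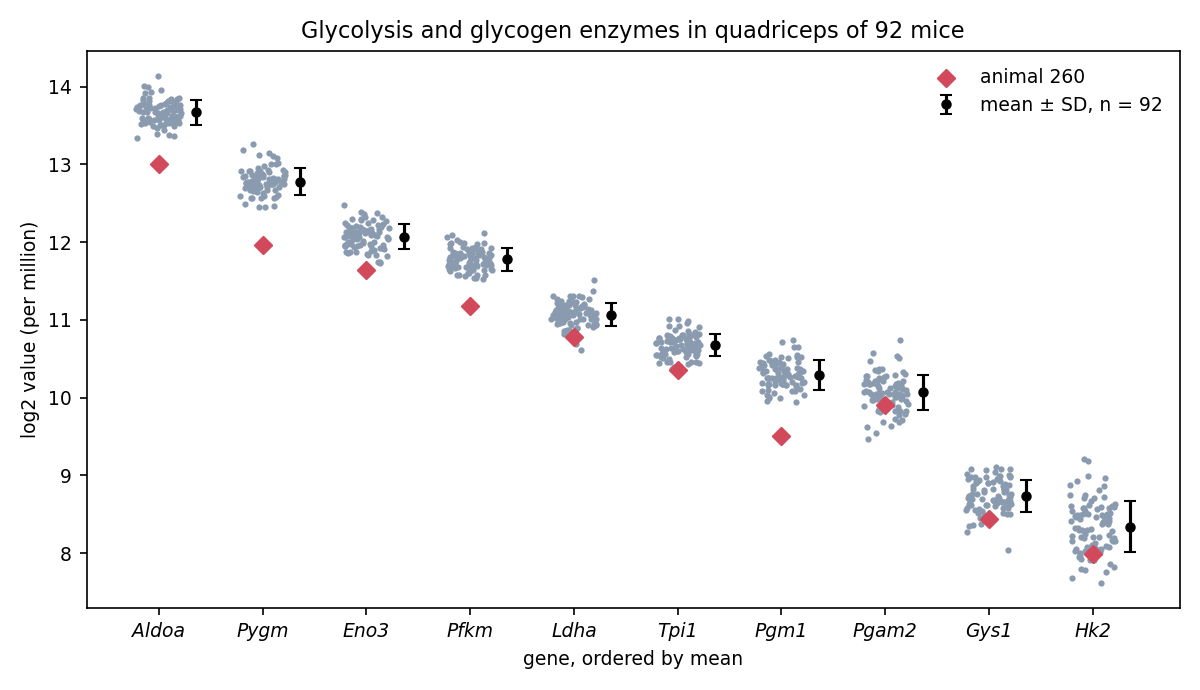
Log2 per-million value of each enzyme gene (y axis) in each of the 92 animals, genes ordered by this mean, which is not divided by length (x axis), with the mean ± SD in black and animal 260 as a red diamond. Hk2 has the widest cloud (7.62 to 9.21), and animal 260 lies below all other animals for Aldoa, Pygm, Eno3, Pfkm, Tpi1 and Pgm1.

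Together the 10 genes took 2.56% to 4.22% of the summed linear values of a library, with a median of 3.44%. In 4 of 92 animals all 10 were above their own means, and in 5 all 10 were below. The highest mean standardised level of an animal was 1.83 SD, with 9 of 10 genes above their means, and animal 260 had the lowest, -2.68 SD, with 10 of 10 below. The next lowest was at -1.23 SD.

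Per kilobase of merged exons the order of the log2 levels was Aldoa (12.13), Eno3 (11.27), Pygm (11.09), Pgam2 (10.32), Pfkm (10.04), Ldha (9.34), Tpi1 (9.21), Pgm1 (8.75), Gys1 (6.48) and Hk2 (5.77). Aldolase was above enolase in 92 of 92 animals, by 0.85 ± 0.13 log2 (SD of the difference within animals). The neighbours that lay closest were Ldha and Tpi1, which differed by 0.13 ± 0.16 with Ldha higher in 72 of 92 animals, so that this difference was smaller than its spread. Eno3 exceeded Pygm by 0.18 ± 0.16 in 81 animals, and Pgam2 exceeded Pfkm by 0.28 ± 0.23 in 79. The broadest step was from Pgm1 down to Gys1, 2.27 ± 0.29 log2 or 4.83-fold, in all 92 animals. With the longest annotated transcript as the length the order was the same but the steps were not. Pfkm and Ldha were then the closest, 0.04 ± 0.17 apart with Pfkm higher in 56 of 92 animals, whereas with merged exons Pfkm was 0.70 ± 0.17 higher in all 92. Aldoa over Eno3 was 3.05-fold by that length and 1.81-fold with merged exons.

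For 7 of the 10 steps the table holds another gene for the same reaction, and in each such pair the muscle gene was higher per kilobase in 92 of 92 animals. The mean ratio was lowest for lactate dehydrogenase, at 10.9-fold for Ldha over Ldhb, the form typical of heart. Hk2 exceeded Hk1, the form of brain and many other tissues, 52.2-fold. Pgam2 exceeded Pgam1 151-fold and Pfkm exceeded Pfkl 896-fold. Pygm exceeded the brain form Pygb 2137-fold, and Gys1 exceeded the liver form Gys2 228-fold. Pgm1 is left out because the related Pgm2 and Pgm2l1 are known mainly for other reactions. Not divided by length, the mean log2 levels of Gys2 (0.05), Pygb (2.30), Pfkl (2.97) and Hk1 (3.15) lay below the median of a library (3.49). Those of Pgam1 (4.07) and Ldhb (6.55) lay above it. The ratios are approximate, since several minor forms lie low.

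The glycolytic enzymes rose and fell together over the animals, and Hk2 and Gys1 did so least. Over the 45 pairs the median Pearson r was 0.386, from -0.0390 to 0.826, and 42 were positive, whereas the median over all pairs of genes in the table was -0.00144. Each gene was tested against each other with limma, as the slope of its log2 value on the standardised level of the other, with Benjamini-Hochberg adjustment over all genes and a threshold of 0.05. Of the 90 ordered relations 55 passed, all rising, against a background of 5.77% of all genes rising and 4.76% falling with these 10 genes pooled. Each pair enters these counts in both directions, and 26 of the 45 pairs passed in both. Without animal 260 the count was 48, and the median r 0.355. With each library divided by its own sum the count was 32 and the median r 0.232, with 41 of 45 pairs positive. The summed value of a library (898071 to 1140761) correlated with the enzymes at r = 0.214 (Hk2) to 0.567 (Pfkm).

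**Figure D2:**
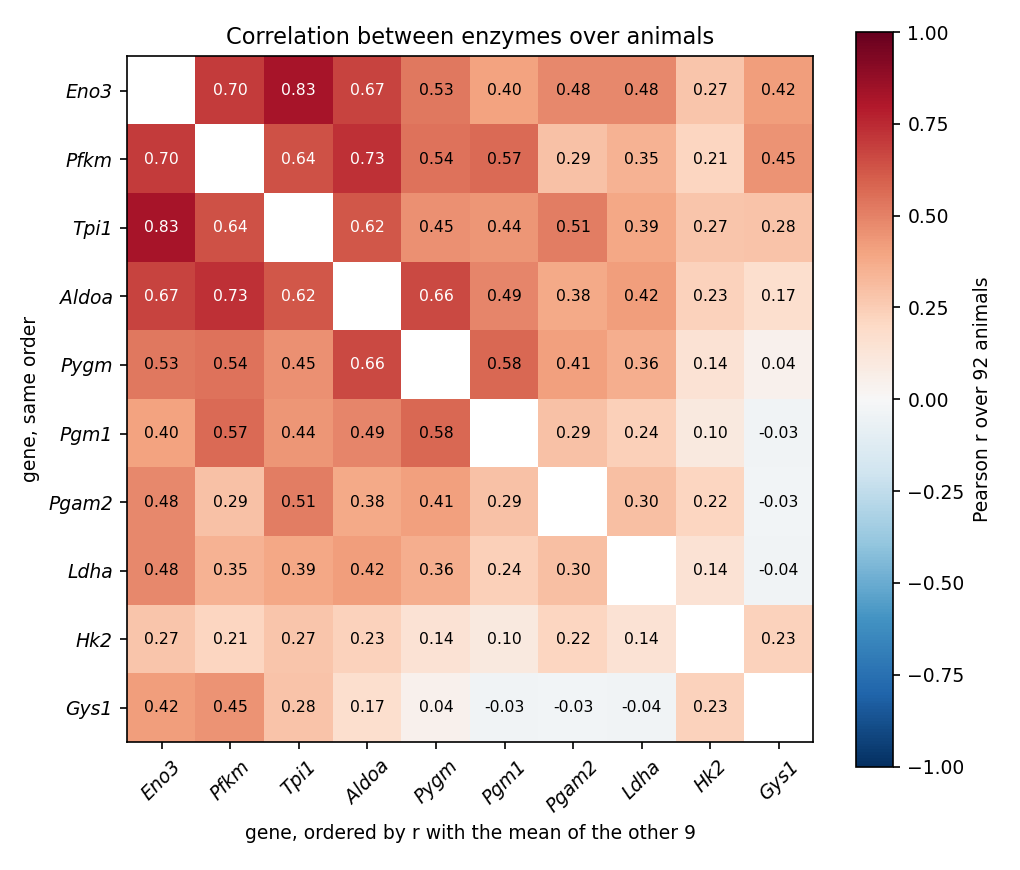
Pearson r over 92 animals for each of the 45 pairs of enzymes (colour and number), with genes on both axes ordered by their correlation with the mean of the other 9. Values are high in the upper left corner, where Eno3, Pfkm, Tpi1 and Aldoa meet (0.625 to 0.826), and Aldoa with Pygm (0.663) lies in the same range. Values are near 0 along much of the Gys1 row.

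The closest pair was Tpi1 and Eno3. Their log2 levels correlated at r = 0.826 and rho = 0.790 (n = 92, two-sided permutation p = 1e-05 for each, the smallest that 100000 permutations can give). Eno3 rose by 0.13 ± 0.01 log2 (SE) per SD of Tpi1 (limma, adjusted p = 1.66e-17). Without the 2 animals farthest from the median of Tpi1 r was 0.810. Within the 5 runs of title numbers separated by gaps over 30, which may be batches (33, 14, 21, 11 and 13 animals), r lay between 0.752 and 0.884. Scaled to the library's own sum it was 0.755.

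The next closest pairs involved Pfkm and Aldoa. Pfkm and Aldoa correlated at r = 0.730 and rho = 0.687 (permutation p = 1e-05 for each; limma adjusted p = 2.25e-10), with r = 0.671 without animal 260, and r between 0.604 and 0.863 within the runs of title numbers. Pfkm and Eno3 had r = 0.703 and rho = 0.673 (permutation p = 1e-05 for each; limma adjusted p = 4.56e-10), and 0.467 to 0.858 within runs. Aldoa and Eno3 had r = 0.675 and rho = 0.643 (permutation p = 1e-05 for each; limma adjusted p = 3.17e-09), and 0.366 to 0.796 within runs. Aldoa and Pygm, which join glycolysis and glycogen breakdown, had r = 0.663 but rho = 0.487 (permutation p = 1e-05 for each; limma adjusted p = 7.56e-09). That pair leaned partly on animal 260, without which r was 0.577, below Pfkm with Tpi1 (0.610) and Aldoa with Tpi1 (0.596).

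The 5 loosest pairs were 4 with glycogen synthase and 1 with hexokinase. Ldha and Gys1 had r = -0.0390 (permutation p = 0.711), Pgm1 and Gys1 r = -0.0343 (p = 0.743) and Pgam2 and Gys1 r = -0.0252 (p = 0.811). Pygm and Gys1, the enzymes that break down and build glycogen, had r = 0.0404 (permutation p = 0.701), from -0.322 to 0.326 within runs of title numbers. Hk2 and Pgm1 had r = 0.0995 (permutation p = 0.346). Without animal 260 Pgm1 and Gys1 had the most negative r, -0.114, and Pygm and Gys1 had r = -0.0383. A p-value of this size does not show that the genes vary independently. Gys1 did rise with Pfkm (r = 0.447, permutation p = 2e-05, limma adjusted p = 0.000828) and with Eno3 (r = 0.421, permutation p = 2e-05, limma adjusted p = 0.00242).

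Counted by predictor, the number of the other 9 enzymes that rose was 8 for Pfkm and for Eno3, against backgrounds of 6.67% and 5.11% of all genes. It was 7 for Aldoa (9.34%), Tpi1 (5.62%) and Pygm (11.9%), and 6 for Pgam2 (5.4%) and Pgm1 (7.04%). Ldha had 4 (0.811%) and Gys1 2 (3.12%). With Hk2 as the predictor 0 of 9 passed (2.67%), although 6 had an unadjusted limma p under 0.05. Without animal 260 the counts were 6 for Pfkm, 5 for Pgam2 and for Pgm1 and 1 for Ldha, and those of the other 6 predictors were the same. The correlation of a gene with the mean of the other 9 gave a like order, from 0.832 for Eno3, 0.771 for Pfkm, 0.763 for Tpi1 and 0.752 for Aldoa, through 0.628 for Pygm, 0.508 for Pgm1, 0.471 for Pgam2 and 0.430 for Ldha, to 0.292 for Hk2 and 0.237 for Gys1. The largest shift without animal 260 was for Pgm1, to 0.405, which placed it below Pgam2 (0.492), and Tpi1 (0.756) then stood above Pfkm (0.723). Pygm and Pgm1, which act in turn when glycogen is broken down, correlated at r = 0.576 (rho = 0.390, permutation p = 1e-05 and 0.00011), and r was 0.462 without that animal.

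**Figure D3:**
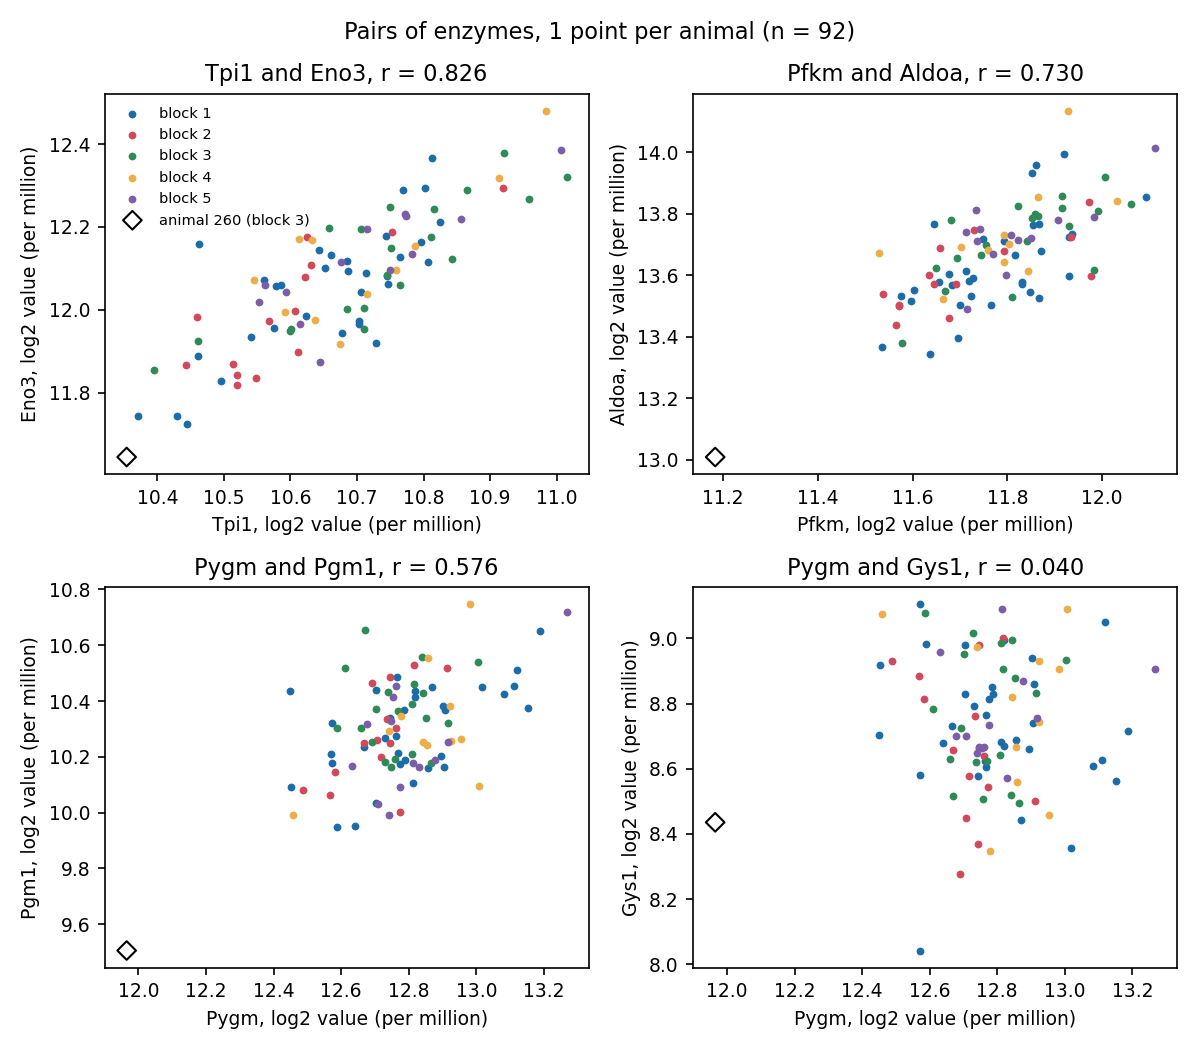
Log2 per-million values of 4 pairs of enzymes (x and y axes), 1 point per animal, coloured by run of title numbers, with animal 260 as an open diamond. Tpi1 and Eno3 (r = 0.826) and Pfkm and Aldoa (0.730) form narrow clouds, Pygm and Pgm1 (0.576) a wider one, and Pygm and Gys1 (0.0404) a round one.

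The enzymes of glycogen stood in opposite relation to the myosins of intermediate fibres. Muscle fibres are typed by their myosin heavy chain, from the fastest, Myh4 (type IIB), through Myh1 (IIX) and Myh2 (IIA) to the slow Myh7 (type I). In these muscles Myh4 had a mean log2 level of 15.90 ± 0.24, Myh1 12.39 ± 0.41, Myh2 11.14 ± 0.49 and Myh7 4.53 ± 1.87. In whole muscle, fewer fibres of a type and less RNA per fibre cannot be told apart. Of 40 relations between the 10 enzymes and the 4 myosins, 10 passed the limma threshold. Without animal 260 the count was 7, made up of 6 of these 10 and the fall of Hk2 with Myh4.

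Gys1 rose with Myh1 and Myh2, while Pygm and Pgm1 fell. Gys1 rose by 0.11 ± 0.02 log2 (SE) per SD of Myh1 (r = 0.539, rho = 0.540, permutation p = 1e-05 for each, limma adjusted p = 1.68e-05), and r was 0.581 without animal 260. The relation held in 4 of 5 runs of title numbers, with r from -0.493 to 0.912, and turned in the last, of 13 animals. With Myh2 it had r = 0.409 (permutation p = 5e-05, adjusted p = 0.00377), positive in 5 of 5 runs. Pygm fell with Myh1 (r = -0.366, adjusted p = 0.0195 and 0.0596 without animal 260) and with Myh2 (r = -0.371, adjusted p = 0.0159). Pgm1 also fell with Myh1 (r = -0.378, adjusted p = 0.0115) and Myh2 (r = -0.396, adjusted p = 0.00622). Of these 4 falls, that of Pgm1 with Myh1 had the same sign in 5 of 5 runs and each of the others in 4 of 5. Thus 1 enzyme rose and 2 fell with each. Without the 2 animals farthest from the median of the myosin, 1 rose and 1 fell with each. Of all genes 2.57% rose and 1.4% fell with Myh1, and 2.91% rose and 2.35% fell with Myh2.

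With Myh4, 4 enzymes rose, of which 1 passed without animal 260. Pygm rose by 0.08 ± 0.02 log2 (SE) per SD of Myh4 (r = 0.466, rho = 0.369, limma adjusted p = 0.000178), and r was 0.332 without animal 260. Pgm1 (r = 0.409, adjusted p = 0.00097), Pfkm (r = 0.3604, adjusted p = 0.00631) and Aldoa (r = 0.298, adjusted p = 0.0319) rose too, but without animal 260 their adjusted p-values were 0.0503, 0.146 and 0.386. The sign was the same in 3 of 5 runs of title numbers for Pfkm and in 4 of 5 for each of the other 3, and in the last run, of 13 animals, r was -0.597 for Pfkm, -0.362 for Aldoa, -0.208 for Pygm and -0.0880 for Pgm1. With each library divided by its own sum Pygm and Pgm1 passed (adjusted p = 0.0109 and 0.0235), while r was 0.189 for Pfkm and 0.120 for Aldoa. Hk2 ran the other way, at r = -0.216 and rho = -0.317 (limma adjusted p = 0.117), and without animal 260 it fell with Myh4 (r = -0.291, adjusted p = 0.0334), as it did with libraries divided by their own sum (r = -0.332, adjusted p = 0.0107). These 4 of 10 stand beside a background of 11.6% of all genes rising with Myh4. With Myh7 0 of 10 passed, against 0.171% of all genes. There 1 of 10 had an unadjusted limma p under 0.05.

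The log2 ratio of Gys1 to Pygm in each animal, a quantity chosen after the values were seen, put these differences in 1 number. Gys1 rose and Pygm fell with Myh1 and Myh2, so a rise of the ratio with both follows from how it is built. The ratio is thus a summary and adds no further test. Per kilobase of merged exons it had a mean of -4.62 ± 0.27, with a lowest animal at -5.23, a median of -4.63 and a highest animal at -3.96, a 2.42-fold range. The length moves this level and leaves the correlations as they are. It correlated with Myh1 at r = 0.660 and rho = 0.643, with Myh2 at r = 0.564 and rho = 0.530, with Myh4 at r = -0.122 and with Myh7 at r = 0.0848. Within the runs of title numbers r with Myh1 lay between -0.00855 and 0.915. A common scaling factor of a library cancels in this ratio, though not in Myh1. Against the log2 ratio of Myh1 to Myh4, where it cancels on both sides, r was 0.580, from 0.191 to 0.814 within runs.

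**Figure D4:**
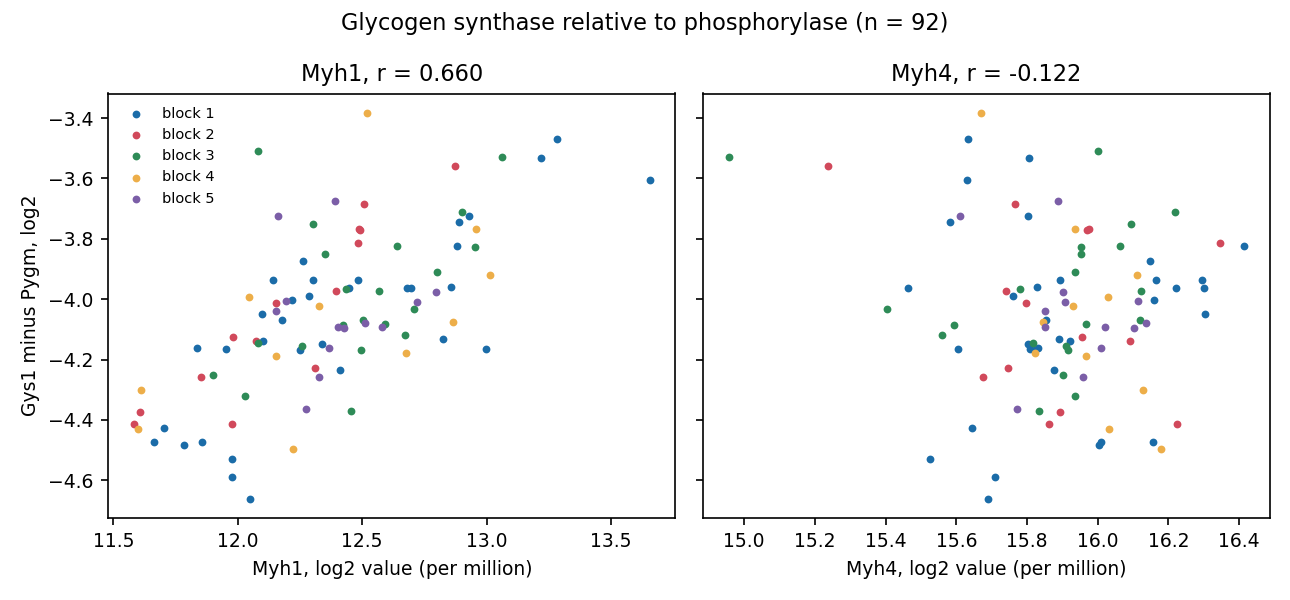
Log2 ratio of Gys1 to Pygm, from values not divided by length (y axis), against the log2 per-million value of Myh1 (left) and of Myh4 (right), 1 point per animal, coloured by run of title numbers. The points climb from left to right for Myh1 (r = 0.660) and form a round cloud for Myh4 (r = -0.122).

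The glucose transporter gene Slc2a4 (GLUT4), at a mean log2 level of 8.69 ± 0.15, rose together with most of glycolysis and with glycogen synthase. With it as the predictor 6 of 10 enzymes rose, against 3.36% of all genes. Tpi1 rose by 0.08 ± 0.01 log2 (SE) per SD of Slc2a4 (r = 0.590, rho = 0.551, permutation p = 1e-05 for each, limma adjusted p = 7.24e-06). Eno3 (r = 0.589), Pfkm (r = 0.569), Gys1 (r = 0.526) and Aldoa (r = 0.512) were alike, each with the same sign in 5 of 5 runs of title numbers. Pgm1 (r = 0.325, adjusted p = 0.038) did not pass without animal 260 (adjusted p = 0.397). Pygm (r = 0.315), Pgam2 (r = 0.279), Hk2 (r = 0.233) and Ldha (r = 0.198) did not pass.

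Hk2 and Gys1 rose with the gene of a mitochondrial regulator, but this count of 2 did not hold under all settings. Ppargc1a, which encodes the coactivator PGC-1alpha of mitochondrial biogenesis, had a mean log2 level of 5.61 ± 0.64. Hk2 rose by 0.13 ± 0.03 log2 (SE) per SD of it (r = 0.401, permutation p = 0.0001, limma adjusted p = 0.00373), though rho was 0.223 (permutation p = 0.0332) and r fell to 0.282 without the 2 animals farthest from the median of Ppargc1a. Gys1 rose as well (r = 0.304, adjusted p = 0.0452), in 4 of 5 runs. These 2 of 10 compare with 4.29% of all genes rising. Leaving out the 2 farthest animals brought the number of enzymes rising with Ppargc1a to 1. Library scaling that ignored the 10 most abundant genes also gave 1, while own-sum scaling gave 2. Pdk4, the kinase that inhibits pyruvate dehydrogenase in fasting, varied widely at 9.82 ± 0.97, and 0 of 10 enzymes passed with it, against 6.01% of all genes. There 1 of 10 had an unadjusted limma p under 0.05. With Aldoa as the predictor instead, Pdk4 had r = 0.243 (adjusted p = 0.0787), and without animal 260 it rose with Aldoa (adjusted p = 0.0211).

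Hif1a, the hypoxia-inducible factor whose known targets include glycolytic genes, ran opposite to 5 of the 10 enzymes. At a mean log2 level of 4.49 ± 0.22, it had Pygm falling by 0.08 ± 0.02 log2 (SE) per SD (r = -0.475, rho = -0.366, permutation p = 3e-05 and 0.00035, limma adjusted p = 0.000102). Pgm1 (r = -0.366), Pgam2 (r = -0.3603), Aldoa (r = -0.359) and Ldha (r = -0.285) fell too, Ldha with an adjusted p of 0.0326, and 0.0538 without animal 260. Gys1 rose (r = 0.263, adjusted p = 0.0455), although r was negative in 2 of 5 runs. Without the 2 animals farthest from the median of Hif1a, 0 enzymes rose with Hif1a and 5 fell. Hif1a moved with much of the table, since 11.4% of all genes fell and 13.3% rose with it. The 1 of 10 enzymes rising was near that share. These are RNA levels, and the activity of the factor was not tested. Of the 40 relations with Slc2a4, Pdk4, Ppargc1a and Hif1a, 14 passed, and 12 without animal 260. With libraries divided by their own sum, Pgm1 with Slc2a4 and Ldha with Hif1a did not pass.

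The ceramide synthase genes, which bear on the subject of the series, were set against the enzymes next. Cers1 encodes the synthase of C18 ceramides, the main form in muscle, and Cers2 that of very long-chain ceramides, and their mean log2 levels were 4.22 ± 0.31 and 4.34 ± 0.21. Of 20 relations 3 passed, and 6 without the 2 animals farthest from the median of each synthase gene, where Aldoa and Pygm also rose with Cers1 and Eno3 also fell with Cers2. Pgm1 rose by 0.11 ± 0.02 log2 (SE) per SD of Cers1 (r = 0.573, rho = 0.523, permutation p = 1e-05 for each, limma adjusted p = 6.83e-06), with r from 0.420 to 0.784 within runs of title numbers and 0.543 without animal 260. Tpi1 rose with Cers1 (r = 0.357, adjusted p = 0.0228, but 0.0591 without animal 260 and 0.1 with libraries divided by their own sum). Pfkm fell with Cers2 (r = -0.418, rho = -0.425, adjusted p = 0.00676), in 4 of 5 runs. The background was 2.77% of all genes rising with Cers1 and 3.88% falling with Cers2.

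Next the enzymes were set against the mean standardised level of lists that mark other cells or programmes. Of 80 relations 14 passed, and 10 without animal 260. The count was 6 with libraries scaled to the sum without the 10 most abundant genes, 5 with libraries divided by their own sum and 7 without the 2 animals farthest from the median of the list. A list of 13 genes, subunits of oxidative phosphorylation and the citrate synthase gene Cs, had 7 of 10 enzymes rising with it, against 6.54% of all genes. Tpi1 (r = 0.575, limma adjusted p = 5.13e-07), Eno3 (r = 0.4996, adjusted p = 4.76e-05) and Hk2 (r = 0.426, adjusted p = 0.000691) led, and Aldoa, Pfkm, Pgam2 and Gys1 followed at 0.323 to 0.387. For Pfkm and Aldoa the sign held in 4 of 5 runs of title numbers, with r of -0.436 and -0.270 in the run that turned, and for the other 5 in 5 of 5. Under the 3 settings just named the number of enzymes rising with this list was 3, 4 and 4, and Tpi1, Eno3 and Hk2 passed in all 3. Pgm1 had r = 0.00141 with it. The slow fibre list had 1 of 10 falling, Pgm1 (r = -0.401, adjusted p = 0.0141, but 0.0563 without animal 260 and 0.0649 with libraries divided by their own sum), against 0.193% of all genes.

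Falls with lists of other cell types were seen for 4 enzymes, and all 6 of them changed sign with 3 principal components as covariates. With libraries divided by their own sum 0 of the 6 passed by limma (adjusted p from 0.147 to 0.705, and 0 at an unadjusted p under 0.05), and 2 did without the 2 farthest animals, Aldoa with the fibroblast list and Pygm with the macrophage list. With the fibroblast list Aldoa (r = -0.405), Pfkm (r = -0.394), Pygm (r = -0.392) and Pgm1 (r = -0.307) fell, 4 of 10 against 9.6% of all genes. Without animal 260, Pygm (adjusted p = 0.0641) and Pgm1 (adjusted p = 0.248) did not pass. The sign was the same in 3 of 5 runs of title numbers for Aldoa and in 4 of 5 for the other 3. With the macrophage list Pygm (r = -0.414, adjusted p = 0.000832) and Pfkm (r = -0.325, adjusted p = 0.015) fell, 2 of 10 against 9.4%, and Pfkm did not pass without animal 260 (adjusted p = 0.174), which leaves 1 of 10, near the background. Both had the same sign in 4 of 5 runs, and in the run that turned r was 0.577 for Pfkm and 0.153 for Pygm. With the adipocyte, endothelial, Schwann cell and blood lists 0 of 10 passed by limma, against 3.75%, 9.76%, 3.36% and 0.238% of all genes. At an unadjusted p under 0.05 there was 1 with the adipocyte list and 1 with the Schwann cell list, Pygm, which rose with that list when libraries were divided by their own sum (adjusted p = 0.0245). The macrophage list took 0.00250% to 0.0246% of the summed linear values, the endothelial list 0.0186% to 0.0449% and the blood list 0.0168% to 2.55%. The part of these cells in the relations among the enzymes was not tested beyond a fit with 7 of the scores as covariates, in which 47 of the 90 relations among the enzymes passed.

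**Figure D5:**
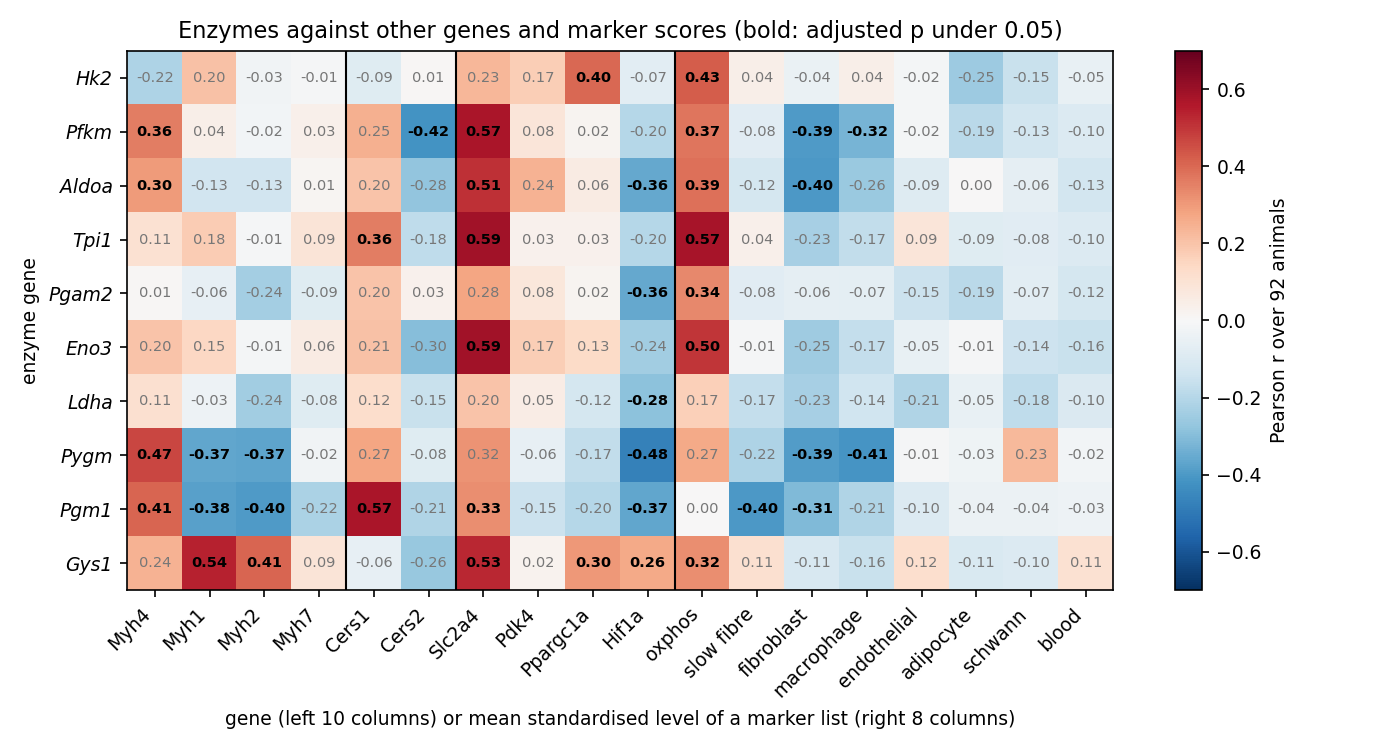
Pearson r over 92 animals (colour and number) between each enzyme (y axis) and 10 single genes or 8 marker lists (x axis), in bold where the limma adjusted p is under 0.05. Slc2a4 and the oxidative phosphorylation list form red columns, the signs of Gys1 and of Pygm and Pgm1 are opposite under Myh1, Myh2 and Hif1a, and the adipocyte, endothelial, Schwann cell and blood columns hold no bold value.

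The rest of glycolysis was described with 14 further genes of the pathway. Of their 140 relations to the 10 enzymes 33 rose (23.6%) and 6 fell (4.29%). Over all genes 5.77% rose and 4.76% fell, so the falling share was near the background. Without animal 260, 30 rose and 2 fell. Gpi1, the isomerase between hexokinase and phosphofructokinase (log2 level 9.39 ± 0.15), and Pgk1, phosphoglycerate kinase (9.75 ± 0.23), rose with 8 enzymes each, all but Hk2 and Gys1. The highest r was 0.716 for Gpi1 with Aldoa and 0.740 for Pgk1 with Eno3. Gapdh (12.69 ± 0.29), whose reads near-identical retrocopies can share, rose with 7 and Pkm, pyruvate kinase (11.16 ± 0.15), with 6. Without animal 260 these counts were 7 for Gpi1, 8 for Pgk1, 6 for Gapdh and 6 for Pkm.

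The minor or non-muscle forms moved less. Pgam1 (4.07 ± 0.35) fell with Pfkm and Gys1, Hk1 (3.15 ± 0.40) fell with Pygm and Ldhb (6.55 ± 0.56) fell with Pgm1. Hk3 (-0.63 ± 0.79) and Eno2 (0.39 ± 0.58) fell with Pygm, and Bpgm, the red cell enzyme (6.58 ± 0.25), rose with it. Pfkl (2.97 ± 0.48), Pfkp (2.66 ± 0.45) and Eno1 (4.94 ± 0.36) passed with 0 of the 10 by limma. Of the relations named for these minor forms, only the fall of Ldhb with Pgm1 passed without animal 260, where Bpgm also fell with Hk2 (adjusted p = 0.0328).

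The 26 further genes of glycogen metabolism had 36 relations rising (13.8%) and 3 falling (1.15%) of 260, against the same 5.77% and 4.76% of all genes. Without animal 260 only 19 of the 260 rose and 4 fell, so much of the rising share rested on that animal. The share of all genes for that fit is not given here. Stbd1, which binds glycogen, rose with 6 enzymes, the highest r being 0.454 with Eno3. Gsk3a, a kinase that inhibits glycogen synthase, rose with 5, among them Pygm at r = 0.588 (limma adjusted p = 3.65e-07), whereas its r with Gys1 was 0.00170. Ugp2, which makes the UDP-glucose that glycogen synthase uses, rose with 4, led by Hk2 (r = 0.405). Phka1 and Phkb, subunits of the kinase that activates phosphorylase, rose with 4 each and most closely with Pfkm (r = 0.387 and 0.412). Without animal 260 both passed with 0 by limma, with adjusted p of 0.0533 and 0.081 on Pfkm and with 4 and 3 enzymes at an unadjusted p under 0.05. Gsk3a then passed with 2, while Stbd1 and Ugp2 had 6 and 4 as before.

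The 34 genes of glucose supply and its control had 67 relations rising (19.7%) and 15 falling (4.41%) of 340. Of all genes 5.77% rose and 4.76% fell, so the falling share was again near the background. Without animal 260, 46 rose and 16 fell. Slc16a3, the lactate exporter MCT4, rose with 9 of the 10, all but Gys1, and most closely with Eno3 (r = 0.588, limma adjusted p = 6.79e-07). Slc2a4 rose with 7 when each enzyme served as the predictor. Mpc1 and Mpc2, the mitochondrial pyruvate carrier, rose with 7 and 6, and Gpd1, the cytosolic glycerol phosphate dehydrogenase, with 7, led by Tpi1 (r = 0.558). Without animal 260 the counts were 6 for Slc16a3, 5 for Slc2a4, 3 for Mpc1, 4 for Mpc2 and 4 for Gpd1. Over these 3 lists 160 relations passed, and 90 when each library was scaled to its own sum.

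The 3 genes most like each enzyme, by Pearson r over the 92 animals among genes other than the 10 enzymes with a mean log2 level of at least 1, are given as a description. With the enzymes let in, 3 of the 10 most alike genes were other enzymes of the set for each of Pfkm, Aldoa, Tpi1 and Eno3, 1 was for Ldha and none was for the other 5. For Hk2 they were Ndufs4 (0.599), Ndufv2 (0.530) and Pank4 (0.529), of which Ndufs4 and Ndufv2 encode subunits of respiratory complex I. Pygm was matched by Ckm, muscle creatine kinase (0.812), Myoz1 of the fast-fibre Z-disc (0.782) and the fast troponin Tnnt3 (0.733). Aldoa was matched by Myoz1 (0.722), Ybx3 (0.721) and Gpi1 (0.716), and Pfkm by Vdac3 (0.595), Ybx3 (0.594) and Fem1a (0.593).

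Tpi1 and Eno3 had the glycolytic gene Pgk1 as their closest match. For Tpi1 the matches were Pgk1 (0.6997), the ADP/ATP carrier Slc25a4 (0.661) and Vdac2 (0.651), and for Eno3 Pgk1 (0.740), the Z-disc gene Ldb3 (0.718) and Gapdh (0.648). Ldha had weaker matches in Dbndd2 (0.508), Ndufb4 (0.496) and Slc35b1 (0.468). Pgm1 was matched by Amd1, an enzyme of polyamine synthesis (0.704), Phospho1 (0.647) and Mettl21c (0.645), and Gys1 by the mitochondrial protease Afg3l2 (0.638), Ptpn3 (0.598) and Cpt1b, which admits fatty acids to mitochondria (0.583). With animal 260 left out the closest match was Pgk1 (0.578) for Pfkm and Gpi1 (0.739) for Aldoa, and Amd1 (0.625) came second for Pgm1. The closest match of each of the other 7 was the same.

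The closest match of Pgam2 lay near it in the genome. That was Mrps24, a mitochondrial ribosomal protein gene (r = 0.751, rho = 0.712), which lies 85959 bases away on the same chromosome 11, followed by Serf2 (0.561) and Hint1 (0.559). The r was 0.752 without animal 260.

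With the mean standardised level of the 10 enzymes, the 8 most alike genes were Fem1a (r = 0.716), Gpi1 (0.703), Pgk1 (0.690), Slc25a4 (0.681), the muscle ribosomal protein gene Rpl3l (0.677), Myoz1 (0.654), Slc16a3 (0.650) and Chchd10 (0.644). The 5 at the opposite end were Itih5 (-0.585), the syndecan Sdc2 (-0.560), Serinc5 (-0.557), the receptor gene Notch2 (-0.554) and Dtx4 (-0.540). Each of these 13 had the same sign in 5 of 5 runs of title numbers, and they are given without a test. Leaving out animal 260, the order was led by Gpi1 (0.730), Pgk1 (0.729) and Fem1a (0.656), with Acta1 (0.621) in place of Chchd10 among the 8. At the opposite end Itih5 (-0.584) and Serinc5 (-0.537) were again among the 5, whose lowest was Secisbp2l (-0.621). With each library divided by its own sum the r of the first 8 lay between 0.503 and 0.587. For the 5 at the opposite end it was then -0.392 for Itih5, -0.359 for Sdc2, -0.315 for Serinc5, -0.269 for Dtx4 and -0.154 for Notch2.

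Between the 5 runs of title numbers, 0 of 10 enzymes differed by the limma F test, with adjusted p from 0.637 (Tpi1) to 0.975 (Pgm1), and 2 of all genes did, a background of 0.0149%. Of all genes 1120 had an unadjusted p under 0.05, and 0 of the 10 enzymes did. The runs' means of Hk2, the enzyme with the widest spread, lay between 8.27 and 8.51. Exons of Aldoa, Gys1, Pfkm, Pgm1 and Tpi1 overlap those of Fam57b, Ruvbl2, Senp1, Itgb3bp and Spsb2 on the other strand, so reads there may be shared. Those neighbours had mean log2 levels of 5.67, 4.10, 3.20, 1.45 and 1.34, not divided by length. Gm26513, annotated as an antisense transcript, overlaps exons of Pfkm on the same strand and has no line in the table. Transcripts at least 95% identical over 300 bases exist for Tpi1 (1 pseudogene) and Ldha (3 pseudogenes), none of which is in the table.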

How the data were processed

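RNA of 92 quadriceps was sequenced from KAPA mRNA HyperPrep libraries made with 500 ng of RNA, per the labels' protocols. The submitters' processing notes name bcl2fastq, kallisto 0.50.1, edgeR, MultiQC and mm10. The deposited values are log2 values, and by the sums of their linear values (898071 to 1140761 per library) they are per-million values. The exact scaling is not given in the sources used here. The depth of the libraries is unknown. Of 13456 lines 15 exact repeats were removed. Exon lengths and coordinates came from GENCODE M21 (GRCm38) and promoters from RefSeq.

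Slopes were fitted with limma 3.58.1 (R 4.3.3; empirical Bayes with a mean-variance trend, Benjamini-Hochberg over all genes, threshold 0.05), and checked on simulated data. Permutation tests were two-sided (numpy 2.4.6, 100000 resamples). Near-identical transcripts were sought with blastn 2.17.0. P-values measure the spread between samples, each taken as 1 animal. The enzymes and gene lists were chosen with earlier results of these data known. Named were all 10 enzymes, the 5 highest and 5 lowest pairs, the 3 genes most like each, the 8 highest and 5 lowest for their mean, all other glycolysis genes, and 5 genes of each further list.

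Alternatives were title-number runs, 3 principal components or 7 marker scores as covariates, leaving out the 2 farthest animals, normal scores of ranks (fitted without the trend), log2(2^value + 1), a mean of at least 1, and library scalings. The fits without animal 260, without the 2 least alike libraries and with own-sum scaling were added after the data were seen. No replicate test between groups was possible with 1 group. Values of 1 gene of the pathway lists are not reported here, although the counts over its list include it.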

Additional observations from a re-analysis of the deposited data

How the results depend on the processing

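Counts of relations past the limma threshold that moved by over 1.5 times are given here. Among the enzymes, 55 became 30 when libraries were scaled to the sum without the 10 most abundant genes, and 32 when scaled to their own sum. With the fibre myosins, 10 became 6 with 7 marker scores as covariates and 6 without the 2 animals farthest from the median. With Cers1 and Cers2, 3 became 6 without those 2 animals. With the regulators, 14 became 8 with 3 principal components as covariates. With the marker scores, 14 became 7 without the 2 farthest animals, and 6 and 5 under the same scalings. For the further pathway genes, 160 became 97, 99 and 90 under these settings. Leaving out animal 260, the lowest for 6 enzymes, gave 48, 7, 2, 12 and 10 for the first 5 of these, and 0 enzymes between the runs of title numbers as before. The causes of these shifts were not tested. Of 51 named slopes, 46 passed, and 22 kept their side of the threshold under all settings run. With 3 principal components 6 slopes changed sign: Pfkm and Pygm on the macrophage score (0.126 and 0.123), and Pfkm, Aldoa, Pygm and Pgm1 on the fibroblast score (0.0514, 0.0167, 0.0469 and 0.026). No paired analysis was possible because the labels give 1 group. The unknown depth limits statements on the minor enzyme forms.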

Other observations

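Some relations in the lists of glycogen, supply and control genes stood out after their values were seen, and they are given as descriptions with limma p-values adjusted over all genes. Pygm rose with Pdk2, a kinase that inhibits pyruvate dehydrogenase (r = 0.596, adjusted p = 1.59e-07), and fell with Pfkfb2, which makes and removes the activator of phosphofructokinase (r = -0.546, adjusted p = 2.12e-06). Gys1 rose with Pfkfb1 of the same family (r = 0.535, adjusted p = 2.88e-05). The lactate transporter gene Slc16a1 rose with Hk2 (r = 0.375, adjusted p = 0.0118) and fell with Pygm (r = -0.429, adjusted p = 0.000393) and Pgm1 (r = -0.421, adjusted p = 0.00115), whereas Slc16a3 rose with all 3. Without animal 260 Slc16a3 did not pass with Hk2 (adjusted p = 0.0616) or Pygm (adjusted p = 0.117). The branching enzyme gene Gbe1 rose with Gys1 (r = 0.318, adjusted p = 0.0406) and fell with Pygm (r = -0.331, adjusted p = 0.00876). Ldhb fell with Pgm1 (r = -0.452, adjusted p = 0.000316).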
